A study of Rattus norvegicus with 6 samples.

Results

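The cytochrome P450 genes of the rat were followed in the renal cortex of animals given a brominated diol. Members were all genes whose rat symbol starts with Cyp and a digit, other than Cyp24a1, Cyp27b1 and Cyp51, found by matching the array's RefSeq accessions to gene symbols. The array held 67 such genes on 109 probes. To be tested, a gene needed a probe that the scanner software marked as well above background throughout 1 or both groups, that is on all of its 3 arrays, and the brightest such probe gave its value. That left 41 P450 genes among 31582 genes or sequences tested. RNA was extracted from the outer kidney (renal cortex) of 6 male rats of the Sprague-Dawley strain, 5 weeks old when purchased, and each animal was measured on its own one-colour Agilent microarray. The control group was 3 rats given the vehicle, corn oil, for 4 weeks. The BBMP group was 3 rats given 2,2-bis(bromomethyl)-1,3-propanediol at 1000 mg/kg/day for the same 4 weeks. No genetic change is named for any animal, and 1 dose and 1 time were studied.

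Cytochrome P450 enzymes are heme proteins of the endoplasmic reticulum and the mitochondria that insert an oxygen atom into fatty acids, steroids, vitamins and foreign chemicals, with electrons passed on by a reductase or by ferredoxin. In the kidney they are best known for turning arachidonic acid into signals that act on blood vessels and salt transport. Family 4 enzymes add a hydroxyl group at the end of the fatty acid chain, and enzymes of the 2C and 2J subfamilies form epoxides. The 1A, 2B and 3A subfamilies are the classic drug-inducible forms of the liver.

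Each value is a normalized log2 signal: the log2 of the probe's background-corrected signal over the 75th percentile of its array, so that 0 means equal to that percentile. Differences are BBMP minus control on the log2 scale with their standard error, and a gene was called higher or lower where its limma p-value, adjusted by the Benjamini-Hochberg method over all 31582 genes, was under 0.05. Values are compared between animals for 1 gene and not between genes, because probes differ in brightness.

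The share of probes well above background was 67.2% to 68.6% in control arrays and 70.5% to 72.7% in BBMP arrays. The groups did not overlap in that share, so the filter was passed more easily through the BBMP group. The control arrays shared slide 1 and scan 1 while the BBMP arrays shared slide 2 and scan 2, and an effect of slide or scan cannot be told apart from that of treatment. Among all genes, the call was passed by 17.9%, with 10.2% higher and 7.68% lower. Of all calls 57.1% were higher, a share that was 35.9% with median scaling, 46.6% with cyclic loess and 48.9% with quantile normalization. Proximal tubule markers matched the labelled tissue: all 11 were well above background, none was called, and their summed level was 10.8 to 10.9 in both groups. A summed level is the log2 of the added scaled signals of all genes of a list on the array, tested or not. It therefore follows the probes that are brightest and says little about the dim ones. Of the markers of other nephron segments, 1 of 7 tested was called higher, and of those of endothelial cells 1 of 5, Cdh5 (0.51 ± 0.075, limma adjusted p = 0.0158). The median difference of the endothelial list was -0.047, and the uncalled Pecam1 and Kdr were at -0.34 ± 0.16 and -0.19 ± 0.11.

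Of the 41 tested P450 genes, 7 rose in the BBMP group: Cyp2d4, Cyp21a1, Cyp4f40, Cyp4f6, Cyp4a1, Cyp2b15 and Cyp4f17. These 7 are 17.1% of the tested members, beside 10.2% of all genes called higher. Their increases were between 1.31-fold and 1.60-fold, with limma adjusted p-values from 0.0121 to 0.0396, and none reached 2-fold. No tested member was called lower by limma, where 3 had an unadjusted p under 0.05 in that direction, and other settings called between 0 and 4 lower. The groups did not overlap for 13 members (31.7%), beside 43.6% of all genes: 10 members were higher in BBMP animals, beside 25.0% of all genes, and 3 lower, beside 18.6%. The median log2 difference of the tested members was 0.13, and that of all genes was 0.049. In bulk tissue, a change in the number of cells that express a gene and a change in RNA per cell cannot be told apart.

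The count of 7 was smaller in every fit that left out 1 array, and so was the number of calls over all genes. That number was 5659 as reported and ran from 3 to 4002 in those fits, which also hold fewer animals. Without BBMP replicate 2 no P450 gene was called by limma, 8 had an unadjusted p under 0.05 and were higher, and 3 of all 31582 genes were called. Leaving out BBMP replicate 1 or BBMP replicate 3 left 3 P450 genes called higher, and leaving out control replicate 2 left 2. Without control replicate 1 or control replicate 3, 6 were called higher, though not the same 6. Row 1 of the slides held all 3 BBMP arrays and control replicate 3. Within that row the 7 differences ran from 0.37 for Cyp4f17 to 0.78 for Cyp2d4, with signs already fixed by groups that do not overlap. None was called (limma adjusted p-values of 0.130 to 0.219), in a fit that assumes the lone control array to vary like the BBMP arrays.

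**Figure D1:**
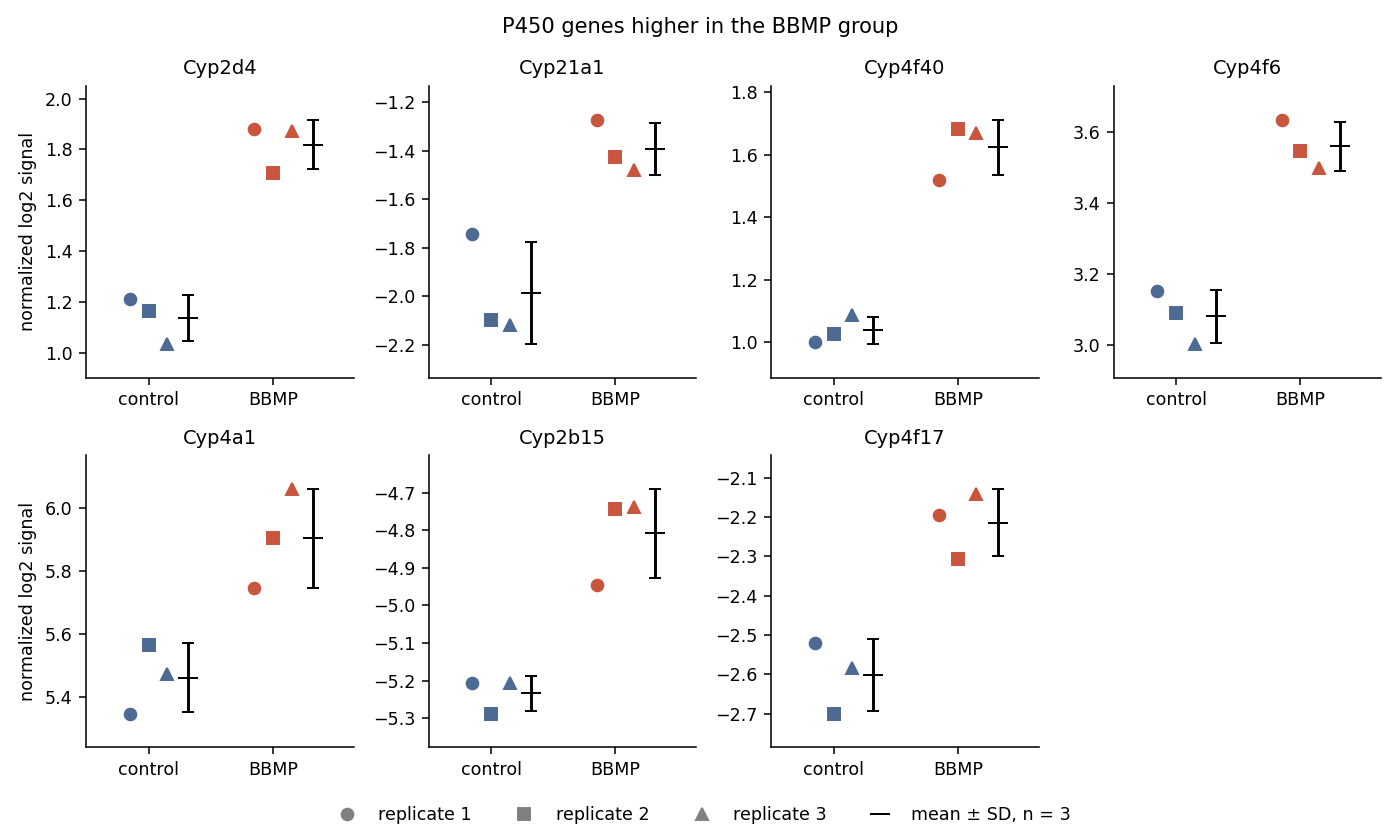
Normalized log2 signal (vertical axis, a scale of its own in each panel) of the 7 P450 genes called higher, by animal. Symbols mark replicate numbers, and the bars are the mean ± SD of 3 animals. In every panel the lowest BBMP animal lies above the highest control animal, with the narrowest gap in Cyp4a1 (5.56 in control replicate 2 against 5.75 in BBMP replicate 1).

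Of all genes 10.2% were called higher, and the role groups were drawn up with earlier results of these data known. Family 4 held 4 of the 7 increases, out of 12 tested genes and 14 on the array, with 10 of the 12 differences above 0. Among those 10, Cyp4x1 (0.028 ± 1.03) had passed the filter through the BBMP group alone, so its sign was favoured by that filter. The median difference of family 4 was 0.26. That of all genes was also above 0, at 0.049, and was -0.026 with median scaling. Of the 5 tested genes of the 4F subfamily, 3 were called higher, and all 5 differences were above 0, with a median of 0.48. Enzymes of this subfamily hydroxylate leukotrienes and other long-chain fatty acids. In the rat the 5 tested genes belong to a cluster on chromosome 7, which does not include Cyp4f18. The order of that cluster in the GRCr8 assembly is Cyp4f39, Cyp4f17, Cyp4f5, Cyp4f37, Ftl1l5, Cyp4f40 and Cyp4f4, then 5 loci of other names, then Cyp4f1 and Cyp4f6. The 3 called genes therefore do not stand side by side: Cyp4f5 and Cyp4f1, which were not called, lie beside Cyp4f17 and Cyp4f6.

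The promoter windows of Cyp4f40 and Cyp4f6 are shown because these genes were called in more settings than the other family 4 members. Each window runs from 250 bases before to 50 bases after the annotated start, is printed 5′ to 3′ on the gene's strand, and comes from RefSeq on GRCr8. Cyp4f40 lies on the plus strand at chr7:12342340-12342639 and Cyp4f6 on the minus strand at chr7:12708329-12708628. Capitals mark matches, on either strand, to 4 short motifs that were chosen after the expression values were known: TATAAA (the TATA box), GCGTG (the core bound by the aryl hydrocarbon receptor), AGGTCA (a nuclear receptor half-site) and TGACNNNGC (the core of the antioxidant response element).
Cyp4f40: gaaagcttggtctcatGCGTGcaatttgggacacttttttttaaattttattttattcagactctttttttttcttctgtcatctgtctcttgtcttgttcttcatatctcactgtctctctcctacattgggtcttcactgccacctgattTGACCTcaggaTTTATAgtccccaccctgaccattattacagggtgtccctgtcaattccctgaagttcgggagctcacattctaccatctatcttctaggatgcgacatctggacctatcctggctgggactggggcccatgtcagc
Cyp4f6: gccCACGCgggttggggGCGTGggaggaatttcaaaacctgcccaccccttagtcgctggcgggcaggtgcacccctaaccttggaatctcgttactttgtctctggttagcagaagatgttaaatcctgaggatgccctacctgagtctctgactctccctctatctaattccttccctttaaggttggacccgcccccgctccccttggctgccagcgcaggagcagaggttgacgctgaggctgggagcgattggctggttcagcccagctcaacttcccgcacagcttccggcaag

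Counted from the first base of the window, Cyp4f40 held GCGTG at bases 17 to 21 and, both on the opposite strand, AGGTCA at 153 to 158 and TATAAA at 164 to 169. Cyp4f6 held GCGTG at bases 4 to 8 on the opposite strand and at 18 to 22, with no match to the other 3 motifs. No matches overlapped in these windows. GCGTG was present in 29.7% of all 33469 windows of this length and in 13 of 34 windows (38.2%) of tested P450 genes, and AGGTCA in 16.2% and in 14 of 34 (41.2%). TATAAA was in 14.2% of all windows and 8 of the 34 (23.5%), and TGACNNNGC in 12.1% and 3 of the 34 (8.82%). Of the 5 called genes with a window, AGGTCA was found in Cyp21a1, Cyp2b15 and Cyp4f40, and TGACNNNGC in none. These are letter matches in a short window and say nothing about whether a factor binds there.

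Cyp4f40 gave 1.00, 1.03 and 1.09 in control replicates 1 to 3 and 1.52, 1.68 and 1.67 in BBMP replicates 1 to 3. Every BBMP animal was above every control animal, and the difference of 0.58 ± 0.070 (1.5-fold, limma adjusted p = 0.0121) was large against SDs of 0.043 and 0.089. The call was lost in 1 of the 6 fits that left out an array, without BBMP replicate 2 (limma adjusted p = 0.0530). Cyp4f6, which hydroxylates leukotrienes in the rat, gave 3.15, 3.09 and 3.00 in control and 3.64, 3.55 and 3.50 in BBMP animals. Its groups were also apart, by 0.48 ± 0.071 (1.39-fold, limma adjusted p = 0.0158). A further Cyp4f6 probe, tested with p adjusted over all probes, was called too, with a difference of 0.47 (limma adjusted p = 0.0162). Without control replicate 2, BBMP replicate 1 or BBMP replicate 2 the call on Cyp4f6 was lost, while the difference stayed between 0.44 and 0.51 whichever array was left out.

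Cyp4f17 gave -2.52, -2.70 and -2.58 in control and -2.19, -2.31 and -2.14 in BBMP animals. The groups were apart by 0.39 ± 0.078 (1.31-fold, limma adjusted p = 0.0279), the smallest of the 7 increases, and leaving out any 1 array ended the call, with limma adjusted p-values of 0.0566 to 0.0856. A second Cyp4f17 probe was called with a larger difference of 0.66 (limma adjusted p = 0.0134). Cyp4f5, a leukotriene hydroxylase of the rat, gave -1.74, -0.23 and -0.63 in control and -0.22, -0.48 and -0.15 in BBMP animals. Control replicate 1 lay below all the other animals, and the remaining controls fell within or near the BBMP range, so that the difference of 0.58 ± 0.39, as large as that of Cyp4f40, was not called (limma adjusted p = 0.324). Cyp4f1, first known from rat liver tumours and named here after its values were seen, gave 6.28, 6.25 and 6.29 in control and 6.33, 6.55 and 6.36 in BBMP animals. Its groups did not overlap, but the difference of 0.14 ± 0.077 was not called (limma adjusted p = 0.236). Cyp4f4 and Cyp4f18 were well above background on 2 arrays and 1 array and were not tested.

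The 4A subfamily, whose rat members Cyp4a1, Cyp4a2 and Cyp4a3 form the vasoconstrictor hydroxy acid of arachidonic acid in kidney, had 4 genes on the array and all 4 were tested. Only Cyp4a1 was called, and the 4 differences ran from -0.66 to 0.44. Cyp4a1, also the textbook target of peroxisome proliferators in rat liver, gave 5.35, 5.56 and 5.47 in control and 5.75, 5.91 and 6.06 in BBMP animals. The groups did not overlap, and the difference was 0.44 ± 0.10 (1.36-fold, limma adjusted p = 0.0396). A second Cyp4a1 probe rose by the same 0.44 (limma adjusted p = 0.0253). Leaving out any 1 array ended the call on Cyp4a1, with limma adjusted p-values of 0.0601 to 0.106.

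Cyp4a2 gave 8.87, 9.02 and 8.63 in control and 8.86, 8.82 and 8.92 in BBMP animals. Its groups overlapped fully, with a difference of 0.028 ± 0.11 (limma adjusted p = 0.875). Cyp4a8 gave 8.20, 8.43 and 8.07 in control and 8.43, 8.34 and 8.16 in BBMP animals, and these groups overlapped as well (0.077 ± 0.12, limma adjusted p = 0.678). Cyp4a3 gave 7.98, 8.03 and 8.49 in control and 7.27, 7.23 and 8.02 in BBMP animals. BBMP replicates 1 and 2 were below every control animal and BBMP replicate 3 was among them, and the difference of -0.66 ± 0.26 was not called (limma adjusted p = 0.125), though it was the largest negative one in family 4. The promoter windows of Cyp4a2 and Cyp4a3 were identical at 94.7% of 300 aligned positions. How far a probe for either gene also binds the transcript of its near copy was not tested, since the files hold no probe sequences.

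Among the rest of family 4, all named after their values were seen, Cyp4b1 had groups that did not overlap and a difference of 0.44 ± 0.13 (limma adjusted p = 0.0688), and was not called. Cyp4v3, whose human counterpart hydroxylates fatty acids in the eye, did not overlap either and was lower, with a difference of -0.23 ± 0.064 (limma adjusted p = 0.0610). It was called lower with cyclic loess, median scaling and normexp, but not with quantile normalization (limma adjusted p = 0.0514), at differences in the first 3 of -0.29, -0.30 and -0.29. Cyp4x1 was well above background on 1 control array and spread from -7.35 to -3.12 among control animals, so that its difference of 0.028 ± 1.03 carried the widest error of all members.

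**Figure D2:**
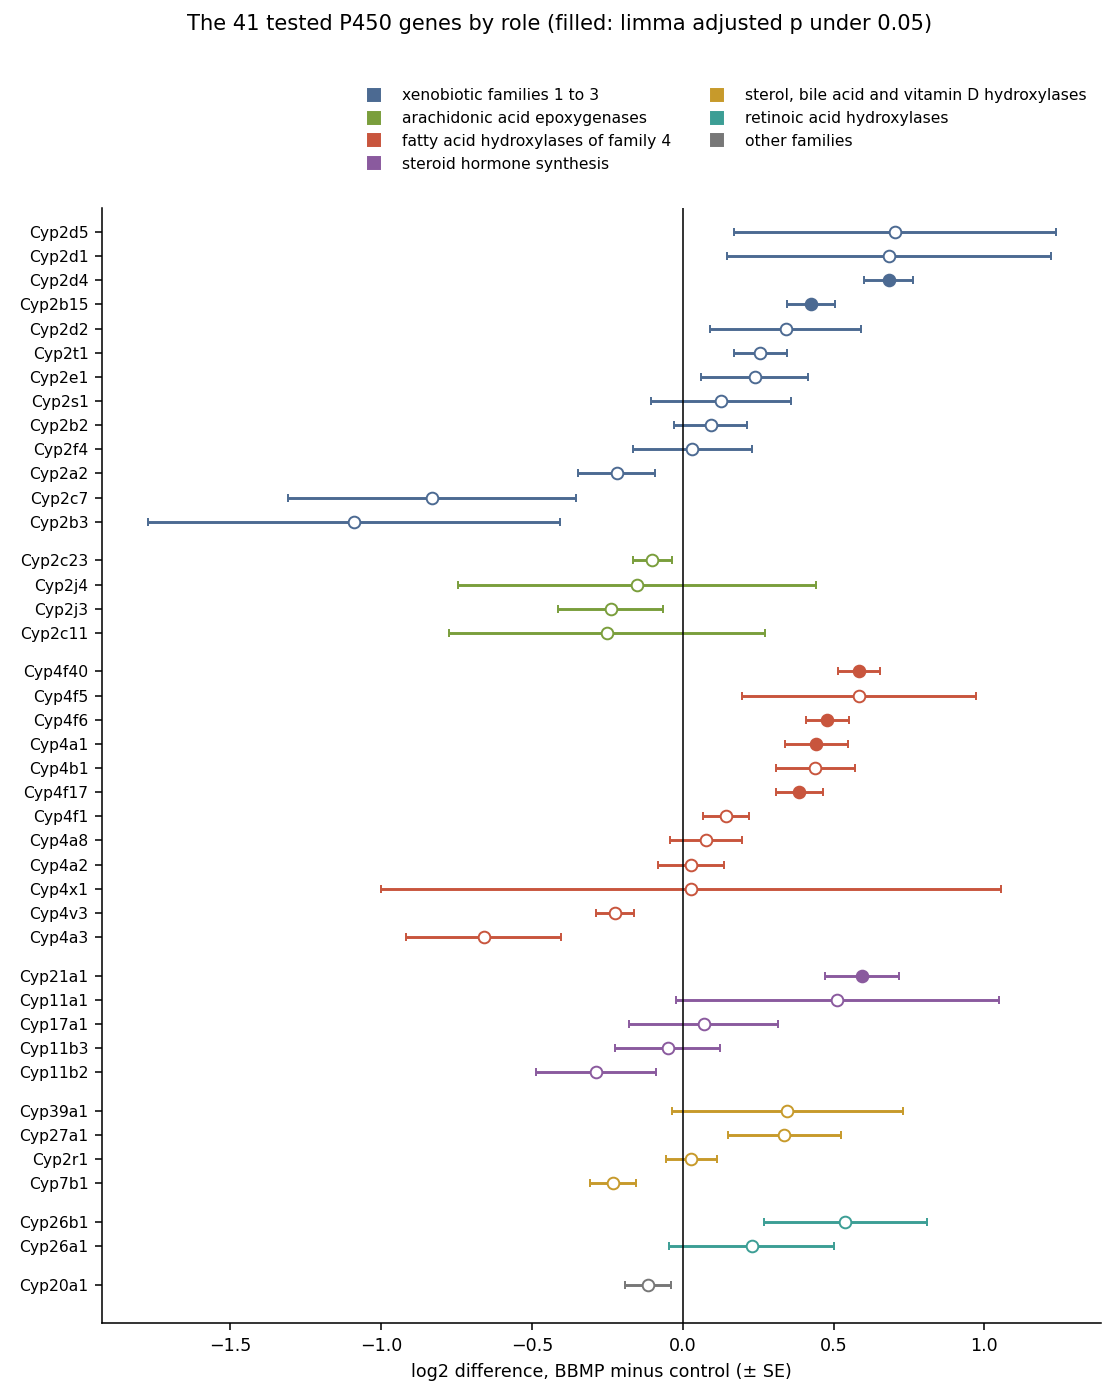
Log2 difference, BBMP minus control (horizontal axis), of the 41 tested P450 genes, coloured by role, with bars for the standard error from limma and filled points for an adjusted p under 0.05. Each gene is shown by its brightest tested probe only. The 7 filled points lie between 0.39 and 0.68, all 5 genes of the 4F subfamily lie above 0, and all 4 arachidonic acid epoxygenases lie below 0 without a call.

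The arachidonic acid epoxygenases, the counterpart of family 4 in renal eicosanoid formation, had 5 genes on the array, of which 4 were tested and none was called in either direction by limma. By the probe used for each gene, their 4 differences were all below 0, between -0.25 and -0.10. Other probes did not all share that sign: they gave 0.091 and 0.019 for Cyp2j4, and -0.15 and 0.041 for Cyp2j3. Cyp2c23, the main epoxygenase of the rat kidney cortex, gave 8.53, 8.50 and 8.52 in control and 8.42, 8.33 and 8.50 in BBMP animals. The groups did not overlap, with BBMP replicates 1 and 2 clearly lower and BBMP replicate 3 only just below the lowest control, and the difference of -0.10 ± 0.066 was not called (limma adjusted p = 0.320). Cyp2j3, an epoxygenase found in rat heart, gave -1.71, -2.17 and -2.31 in control and -2.40, -2.13 and -2.39 in BBMP animals. Control replicate 1 was the highest and the other animals intermingled (-0.24 ± 0.17, limma adjusted p = 0.363).

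The remaining pair of epoxygenases varied far more between animals than between groups. Cyp2j4 gave 0.97, -0.050 and -1.17 in control and -0.91, 0.29 and -0.081 in BBMP animals. The highest and the lowest value both came from control animals, and the difference was -0.15 ± 0.59 (limma adjusted p = 0.875). Cyp2c11, the male-specific form of rat liver that also forms epoxides, gave -1.20, -2.50 and -3.31 in control and -2.75, -2.70 and -2.31 in BBMP animals. Here too the BBMP animals lay inside the control range, with a difference of -0.25 ± 0.52 (limma adjusted p = 0.760). The sign of this group was not stable: within slide row 1 the differences of Cyp2c11, Cyp2j3 and Cyp2j4 were above 0, at 0.72, 0.0089 and 0.93. Without control replicate 1 Cyp2c11 (0.32) and Cyp2j4 (0.38) were above 0, and so was Cyp2j4 without BBMP replicate 1 (0.19). Cyp2j10 was well above background on no array.

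The forms that oxidize drugs and other foreign chemicals were the largest group of members on the array: 13 of 32 were tested, 2 were called higher and none lower by limma. None of the 3 genes of family 1 and none of the 5 genes of the 3A subfamily could be tested. Cyp1a1 and Cyp1b1, the usual readouts of aryl hydrocarbon receptor activation, were well above background on no array of either group. The same held for Cyp2b1, the form most strongly induced by phenobarbital in rat liver, and for Cyp3a23-3a1, Cyp3a9 and Cyp3a62. A value below background is a bound and does not show that a transcript is absent. Cyp3a2 was left out for an outlier flag.

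The 2D subfamily, which oxidizes basic drugs and counts as the rat counterpart of human CYP2D6, had 5 genes on the array and 4 tested, all with differences above 0. Cyp2d4, the chief 2D form of rat brain, gave 1.21, 1.17 and 1.03 in control and 1.88, 1.71 and 1.87 in BBMP animals. The groups were well apart, and the difference of 0.68 ± 0.082 (1.60-fold, limma adjusted p = 0.0122) was the largest of the 7 increases. Without BBMP replicate 2 the adjusted p was 0.0525, and in the other 5 fits that left out an array Cyp2d4 stayed called. Cyp2d2, named after its values were seen, gave 2.73, 2.20 and 2.91 in control and 3.22, 3.10 and 2.55 in BBMP animals. Its groups overlapped, with a difference of 0.34 ± 0.25 (limma adjusted p = 0.368).

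Cyp2d1 and Cyp2d5 are near copies that neighbour each other in the cluster order Cyp2d4, Cyp2d5, Cyp2d1, Cyp2d3 and Cyp2d2. Their promoter windows are shown because their values moved together between animals. Both are on the minus strand of GRCr8, Cyp2d1 at chr7:115793381-115793680 and Cyp2d5 at chr7:115784438-115784737, taken from RefSeq over the same span around the start. The capitals mark TATAAA on the opposite strand, the one motif of the 4 found in them, at bases 200 to 205 of the Cyp2d1 window and at 165 to 170 of the Cyp2d5 window. Over 266 overlapping positions the windows were identical at 247 (92.9%), differed at 18 and had 1 gap.
Cyp2d1: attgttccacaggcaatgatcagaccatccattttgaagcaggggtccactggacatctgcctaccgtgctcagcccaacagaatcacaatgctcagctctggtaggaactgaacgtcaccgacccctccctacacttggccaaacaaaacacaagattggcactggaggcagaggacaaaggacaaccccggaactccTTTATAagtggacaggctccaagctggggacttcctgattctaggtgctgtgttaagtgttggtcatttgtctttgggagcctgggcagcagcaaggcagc
Cyp2d5: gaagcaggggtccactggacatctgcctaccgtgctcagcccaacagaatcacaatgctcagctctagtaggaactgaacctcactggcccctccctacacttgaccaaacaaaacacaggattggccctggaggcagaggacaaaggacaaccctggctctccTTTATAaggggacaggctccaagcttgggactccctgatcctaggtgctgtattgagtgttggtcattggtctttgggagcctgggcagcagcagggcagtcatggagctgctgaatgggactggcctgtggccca

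Cyp2d1, named after its values were seen, gave 5.36, 3.55 and 3.37 in control and 4.66, 5.0 and 4.66 in BBMP animals. Cyp2d5 gave 5.51, 3.73 and 3.52 in control and 4.87, 5.18 and 4.81 in BBMP animals. In both genes control replicate 1 was the highest of all 6 animals and the other control animals were the lowest. The differences, 0.68 ± 0.54 for Cyp2d1 and 0.70 ± 0.53 for Cyp2d5, were of the size of that in Cyp2d4 but were not called (limma adjusted p = 0.401 and 0.383). Without control replicate 1 both were called higher, Cyp2d1 by 1.32 ± 0.14 (2.49-fold) and Cyp2d5 by 1.33 ± 0.14 (2.52-fold), each with a limma adjusted p of 0.0387. Control replicate 1 therefore decided the call for this pair, and whether the 2 probes share targets was not tested.

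Control replicate 1 was also the highest control animal in Slc7a13, Slc22a7, Slc15a2, Slc3a1 and Slc6a18. These are markers of the S3 segment, the last stretch of the proximal tubule. In Slc5a1, the other S3 marker, named after its values were seen, control replicate 3 was the highest control (-1.30, and -1.34 in control replicate 1). Slc7a13, a transporter of that segment, gave 5.95, 3.85 and 3.05 in control and 3.83, 5.40 and 4.94 in BBMP animals. Slc22a7, named after its values were seen, gave -1.11, -3.33 and -3.35 in control and -3.12, -1.29 and -1.96 in BBMP animals. In both, control replicate 1 and BBMP replicates 2 and 3 were above the other 3 animals. The S3 markers did not share 1 order of all 6 animals, as a further pair named after its values were seen shows. Slc6a18 was high in all BBMP animals, as Cyp2d1 and Cyp2d5 were, with 4.44, 4.34 and 3.67 in control and 4.54, 4.66 and 4.92 in BBMP animals. Slc15a2 went the other way, with 0.44, -0.79 and -0.41 in control and -1.32, -1.05 and -0.88 in BBMP animals. The groups did not overlap in either. All 6 markers of the S3 list were tested and none was called. Their summed level ran from 7.85 to 8.52 in control and from 7.88 to 8.30 in BBMP animals. It was set mainly by Slc3a1, which ran from 7.71 to 8.13 in control and from 7.62 to 7.95 in BBMP animals. The part of the share of S3 segment in the values of the 2D genes was not tested.

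**Figure D3:**
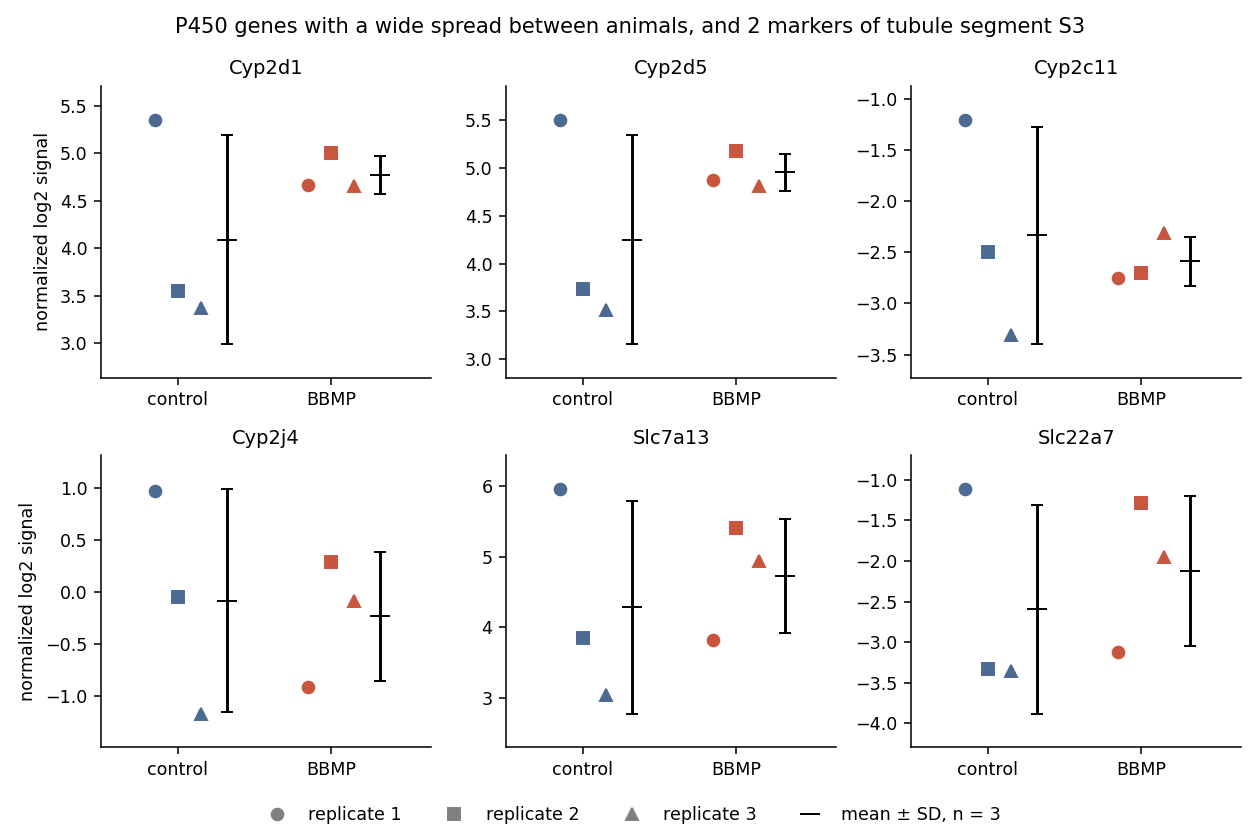
Normalized log2 signal (vertical axis, a scale of its own in each panel) of 4 P450 genes with a wide spread and of 2 markers of the S3 segment, by animal, with bars for the mean ± SD of 3 animals. Control replicate 1 is the highest control animal in all 6 panels, at 5.36 for Cyp2d1 and 5.51 for Cyp2d5 against at most 3.73 in the other controls.

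Cyp2b15, of the 2B subfamily, was the other called gene among the drug-oxidizing forms. It gave -5.21, -5.29 and -5.21 in control and -4.94, -4.74 and -4.74 in BBMP animals. The groups were apart by 0.43 ± 0.079 (1.34-fold, limma adjusted p = 0.0235), at a signal not far above background. Genes of similar brightness were also higher at the median: the median difference of the 1001 genes nearest in signal was 0.18, against -0.029 to 0.066 around the other 6 called genes. With normexp, a different background correction, the Cyp2b15 difference was -0.073, below 0 and not called. A second probe of the gene gave 0.28 (limma adjusted p = 0.343), and of the 6 fits without an array, those without control replicate 3 and without BBMP replicate 1 kept the call.

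Other members of this group did not pass. Cyp2b3 gave -2.48, -4.85 and -3.06 in control and -3.80, -4.65 and -5.22 in BBMP animals, and Cyp2c7 gave -4.94, -5.42 and -5.22 in control and -4.93, -6.40 and -6.75 in BBMP animals. In both the groups overlapped, and their differences of -1.09 ± 0.68 and -0.83 ± 0.48 were the lowest of all tested members, with wide errors and no call (limma adjusted p = 0.297 and 0.260). Cyp2c7 was well above background on 1 BBMP array and had passed the filter through the control group alone, so its sign was favoured by that filter. It was called lower without BBMP replicate 1, at -1.38, and with normexp, at -0.57. Cyp2e1, which oxidizes ethanol and small solvents, gave 5.78, 6.16 and 6.14 in control and 6.23, 6.0 and 6.57 in BBMP animals. Its groups overlapped, with a difference of 0.24 ± 0.18 (limma adjusted p = 0.373). Cyp2t1, named after its values were seen, had groups that did not overlap and a difference of 0.26 ± 0.087 (limma adjusted p = 0.0931). Without control replicate 3 Cyp2t1 was called, at 0.34. The differences of Cyp2a2, Cyp2b2, Cyp2f4 and Cyp2s1 lay between -0.22 and 0.13 and were not called.

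Genes of steroid hormone synthesis, which belong to adrenal and gonad, had 7 members on the array, 5 tested and 1 called. Cyp21a1, which hydroxylates progesterone on the way to adrenal steroids, gave -1.74, -2.10 and -2.12 in control and -1.27, -1.43 and -1.48 in BBMP animals. The groups did not overlap, and the difference was 0.59 ± 0.12 (1.51-fold, limma adjusted p = 0.0298). The call was kept without control replicate 1 and lost without each of the other 5 arrays, with limma adjusted p-values up to 0.0888 and differences of 0.53 to 0.72 over all 6 fits.

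The other 4 tested genes of this group were not called. Cyp11a1, the mitochondrial enzyme that cleaves the cholesterol side chain, gave -5.85, -6.01 and -4.14 in control and -4.95, -4.37 and -5.14 in BBMP animals. Cyp17a1, which leads to androgens, gave -2.49, -2.28 and -1.83 in control and -2.32, -2.37 and -1.70 in BBMP animals. Cyp11b2, the aldosterone synthase, gave -5.62, -5.87 and -5.09 in control and -5.74, -5.88 and -5.82 in BBMP animals. All 3 overlapped between groups, and the differences of 0.51 ± 0.53, 0.069 ± 0.25 and -0.29 ± 0.20 were not called. Cyp11a1 and Cyp11b2 were each well above background on 1 control array and passed through the BBMP group. Cyp11b3 had a difference of -0.050, also not called, and Cyp11b1 and Cyp19a1 were well above background on no array.

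Adrenal markers were examined beside Cyp21a1 because the adrenal gland lies next to the kidney. Of 8 adrenal cortex markers 4 were tested and none was called, while Star, Nr5a1 and Akr1b7 were well above background on no array. All 4 differences were above 0, with a median of 0.44, beside 0.59 ± 0.12 for Cyp21a1. They were 0.29 ± 0.33 for Mrap, 0.38 ± 0.30 for Hsd3b2, 0.49 ± 0.20 for Inha and 0.81 ± 0.40 for Hsd3b1. The summed level of the cortex list ran from 1.47 to 2.14 in control and from 1.78 to 2.71 in BBMP animals. It was set mainly by Mrap, which gave 1.72, 1.87 and 1.15 in control and 1.27, 1.93 and 2.39 in BBMP animals. Hsd3b1 gave -0.75, -1.06 and -2.28 in control and -0.66, -0.66 and -0.33 in BBMP animals, without overlap or a call (limma adjusted p = 0.201). Of the 6 adrenal medulla markers 2 were tested. Th, the first enzyme of catecholamine synthesis, gave 1.05, 1.09 and 1.09 in control and 1.45, 1.40 and 1.47 in BBMP animals and was called higher (0.36 ± 0.055, limma adjusted p = 0.0168), while Dbh and Chgb were well above background on no array. Pnmt, the other tested medulla marker, was also higher without overlap but was not called (0.25 ± 0.076, limma adjusted p = 0.0732). The summed medulla level was 1.27 to 1.31 in control and 1.60 to 1.68 in BBMP animals, but it was set mainly by Th and is no separate measure. The part of adrenal RNA in the Cyp21a1 value was not tested.

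The hydroxylases of sterols, bile acids and vitamin D had 6 members on the array, 4 tested and none called by limma in either direction. Cyp7b1, which hydroxylates oxysterols, gave -0.62, -0.77 and -0.77 in control and -1.02, -0.86 and -0.96 in BBMP animals. The groups did not overlap and BBMP animals were lower, with a difference of -0.23 ± 0.077 and no call (limma adjusted p = 0.0873). Cyp27a1, the mitochondrial sterol hydroxylase of bile acid synthesis, gave -1.60, -1.33 and -1.10 in control and -0.72, -1.01 and -1.29 in BBMP animals, and its groups overlapped (0.34 ± 0.19, limma adjusted p = 0.250). Cyp39a1, another oxysterol hydroxylase, gave -5.54, -5.10 and -6.07 in control and -5.85, -5.23 and -4.59 in BBMP animals, likewise overlapping (0.35 ± 0.38, limma adjusted p = 0.551). Cyp2r1, a vitamin D hydroxylase named after its values were seen, differed by 0.028 ± 0.085, and Cyp7a1 and Cyp8b1 of bile acid synthesis were not tested.

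Both retinoic acid hydroxylases, which break down the hormone form of vitamin A, were tested and neither was called. Cyp26b1 gave -0.0027, -0.10 and 0.87 in control and 0.74, 0.70 and 0.95 in BBMP animals. Control replicate 3 lay among the BBMP animals, and the difference of 0.54 ± 0.27 (limma adjusted p = 0.206) became 0.85 and was called without it (limma adjusted p = 0.0288). Within slide row 1, where that animal was the control, it was -0.078. Cyp26a1 gave -3.03, -3.83 and -3.26 in control and -2.96, -2.89 and -3.58 in BBMP animals, with overlapping groups (0.23 ± 0.27, limma adjusted p = 0.583). Cyp20a1, a P450 of unknown substrate, gave 0.84, 0.87 and 0.80 in control and 0.81, 0.75 and 0.60 in BBMP animals and was not called (-0.12 ± 0.076, limma adjusted p = 0.313).

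The median pooled SD between animals of a group was 0.25 for the tested members and 0.13 for all genes tested. The widest were Cyp4x1, Cyp2b3, Cyp2j4, Cyp2d1, Cyp11a1, Cyp2d5, Cyp2c11 and Cyp2c7, with pooled SDs from 1.52 down to 0.70. All 8 were uncalled, and Cyp2d1, Cyp2d5 and Cyp2c7 were the ones called after leaving out 1 array. A further 24 probes of tested members were measured, of which 18 had the same sign as the probe used and 6 the opposite sign. Among the 4 called genes with such a probe, it was called the same way in Cyp4f6, Cyp4f17 and Cyp4a1 and not in Cyp2b15.

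Of the 26 members that were not tested, 15 were well above background on no array, 10 on 1 to 4 arrays and 1 carried the outlier flag. At the edge of the filter, Cyp2c6v1 was well above background on 2 arrays of each group and stayed out, as did Cyp2d3 with 1 control and 2 BBMP arrays and Cyp2a1 with 2 BBMP arrays. Just inside, Cyp4x1, Cyp11a1, Cyp11b2 and Cyp39a1 passed through the BBMP group alone and Cyp2c7 through the control group alone. The other 36 tested members were well above background on all 6 arrays, and no member probe was saturated.

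Genes that work with the P450 enzymes were described from 5 lists of 70 genes, of which 67 were tested. Among them 10 were called higher and 2 lower, beside 10.2% and 7.68% of all genes, and their median difference was 0.071. Without BBMP replicate 2 none was called by limma in either direction (13 higher and 5 lower had an unadjusted p under 0.05), and the other fits without an array called 1 to 5 higher and 2 to 3 lower. Of 12 electron donors 1 rose, Cyb5r3, the reductase of cytochrome b5 (0.43 ± 0.075, limma adjusted p = 0.0209). Por, the reductase that serves all microsomal P450 enzymes and named here after its values were seen, gave 2.81, 3.24 and 2.98 in control and 2.98, 2.97 and 3.14 in BBMP animals. It overlapped between groups, with a difference of 0.021 ± 0.13 (limma adjusted p = 0.921).

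Of 14 tested nuclear receptors and partners of the aryl hydrocarbon receptor, 3 were called higher and none lower. Hnf4a, a master regulator of proximal tubule and liver genes, gave 0.28, 0.22 and 0.39 in control and 0.89, 0.77 and 0.66 in BBMP animals without overlap (0.48 ± 0.085, limma adjusted p = 0.0216). Arnt, the partner of the aryl hydrocarbon receptor, rose by 0.44 ± 0.11 (limma adjusted p = 0.0475) though its difference was -0.070 with normexp, and Rxrb, a common partner of nuclear receptors, rose by 0.32 ± 0.074 (limma adjusted p = 0.0383). Ahr itself and Nr1i2, the pregnane X receptor, both named after their values were seen, differed by 0.028 ± 0.31 and 0.029 ± 0.080 and were not called. Of 12 genes of heme supply and breakdown 3 were called higher and none lower. Fech, an enzyme of heme synthesis, rose by 0.33 ± 0.057 (limma adjusted p = 0.0204), and Blvrb, a biliverdin reductase, by 0.63 ± 0.12 (limma adjusted p = 0.0226). Alas1, the rate-limiting enzyme of heme synthesis, was not called (0.14 ± 0.14, limma adjusted p = 0.523).

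Of 17 tested eicosanoid enzymes 3 rose and 1 fell. Ephx1, the microsomal epoxide hydrolase that acts on epoxides formed by P450 enzymes, gave 2.93, 3.23 and 3.07 in control and 4.14, 3.96 and 4.17 in BBMP animals. The groups were far apart, and the difference of 1.01 ± 0.10 (2.02-fold, limma adjusted p = 0.0108) was the one among members and partners that reached 2-fold with a call. Tbxas1, the thromboxane synthase, rose by 0.38 ± 0.090, Alox12, a lipoxygenase near background, by 0.55 ± 0.10, and Ptges3 fell, with a difference of -0.46 ± 0.056 (limma adjusted p = 0.0391, 0.0235 and 0.0124). With normexp the Alox12 difference was -0.045. Of 12 tested retinoid genes 1 changed: Rara, a retinoic acid receptor, gave 1.20, 1.22 and 1.03 in control and 0.37, 0.42 and 0.34 in BBMP animals, a difference of -0.78 ± 0.074 (limma adjusted p = 0.0108) that stands beside the uncalled values of Cyp26a1 and Cyp26b1.

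**Figure D4:**
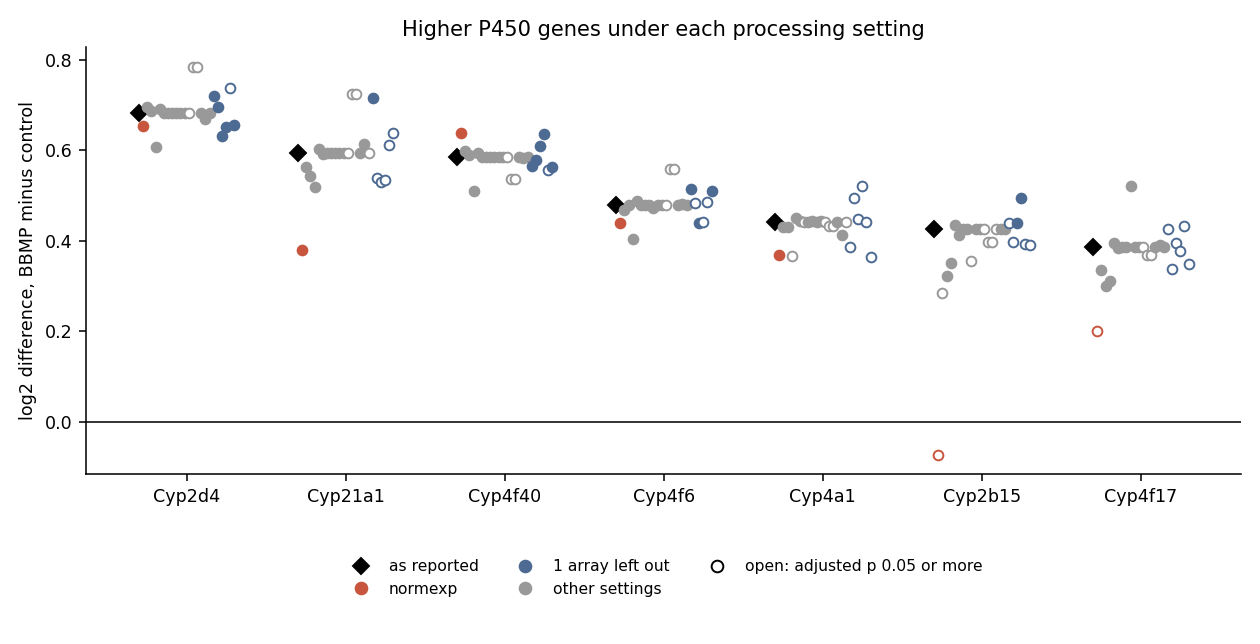
Log2 difference, BBMP minus control (vertical axis), of the 7 called P450 genes as reported (diamonds) and under each of 23 other settings (circles, open where the adjusted p was 0.05 or more). The difference of Cyp2b15 with normexp was -0.073, signs in the fits without an array are fixed because the groups do not overlap, and Cyp2d4 and Cyp4f40 kept their call in 19 of the 23 settings.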

How the data were processed

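Total RNA of 6 renal cortex samples was hybridised to 1-colour Agilent arrays, per the labels' protocols. Per the file headers, Agilent Feature Extraction 10.7.1.1 made the deposited intensity values: a background-corrected processed signal, and the median foreground and local background of each spot. The submitters' processing notes name version 10.7. The flags for spots well above background, saturated or outlying are deposited as scores of 0 or 1. The authors' deposited series table holds ratios, whose making is not given in the sources used here. Each of its columns matched the processed signal over the 75th percentile of another replicate's scanner file of the same group, without centring and in the same direction, with column medians of 0.1064 to 0.1131. Replicate numbers are therefore uncertain, group membership is not, and the scanner files were used as assigned.

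Of 61657 probes not marked as controls, 84 ERCC spike-in probes and 10 with an outlier flag were left out. Each processed signal was divided by its array's 75th percentile (943 to 950 in control and 1244 to 1259 in BBMP arrays) and taken to log2. The groups were compared by a two-sided limma test (limma 3.58.1, R 4.3.3, moderated by eBayes) without covariates, followed by Benjamini-Hochberg adjustment over all genes. The filter of 3 arrays per group left 42657 probes, and the brightest was kept per gene (31582 genes or sequences, 12077 of them named). Unversioned RefSeq accessions were matched to gene symbols of GRCr8, which named 27452 of the 61563 probes kept. Promoter windows came from RefSeq on GRCr8, were found for 33 of the 41 tested members and for 5 of the 7 called ones, not for Cyp4f17 and Cyp4a1, and were searched and aligned with Python 3.11.15. Plots were drawn with matplotlib 3.10.9. The fit was tested on simulated data.

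The design text speaks of biological replicates, so p-values measure the spread between these 3 animals per group, and the number of arrays limits the precision. Same-numbered samples share only a number: the correlations of their deviations from the group means were -0.116, -0.082 and -0.068. Named genes were each called member, the 2 members with the highest mean signal and the 2 uncalled members with the largest difference in each role group, and up to 4 called and 2 brightest genes of each partner or marker list. Any other gene was chosen after its values were seen. A few called genes of the lists are not reported here by name. The members, roles, lists and alternatives were chosen with earlier results of these data known. The planned correction on the foreground signal, normexp with an offset of 50, used the median signal. Alternatives covered background correction, normalization, the deposited ratio table (log2 of the ratio plus 0.001), dim probes, the probe per gene, spike-in probes, blocks for replicate number and slide row, slide row 1 alone, the variance model, a minimum of 2-fold, and each array left out in turn.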

Additional observations from a re-analysis of the deposited data

How the results depend on the processing

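With 3 arrays per group and a treatment that coincides with slide and scan, many calls ended when 1 array was left out. The signs of the 7 called P450 genes are no measure of stability there, since groups that do not overlap fix them in each fit without an array and in slide row 1. The reported counts were 7 P450 genes higher and 0 lower, and 10 partner genes higher and 2 lower. With normexp, 4 P450 genes (Cyp11b2, Cyp2a2, Cyp2c7 and Cyp4v3) and 4 partner genes were called lower, and Cyp2b15 (-0.073), Arnt (-0.070) and Alox12 (-0.045) turned below 0 without a call. Normexp also moved the median difference of all genes from 0.049 to -0.062, and 36.4% of all its calls were higher, against 57.1%. Cyclic loess called 1 P450 gene lower (Cyp4v3), and median scaling called 1 P450 gene lower, with 6 partner genes higher and 4 lower. Without a filter on dim probes 6 partner genes were called higher and 2 P450 genes (Cyp11b1 and Cyp2b21) lower. Both of these P450 genes were well above background on no array, so their values are bounds and show no fall in RNA. Cyp11b1 lay between -7.81 and -7.56 in control and between -8.25 and -8.12 in BBMP animals. The 75th percentile that divides each signal was 943 to 950 in control and 1244 to 1259 in BBMP arrays. Without empirical Bayes moderation 5 partner genes were called higher. With a 2-fold minimum 0 P450 genes were called higher, and 1 partner gene was higher and 0 lower. With slide row as a block, or in slide row 1 alone, limma called 0 P450 genes and 0 partner genes in either direction, and 0 of all genes, where 7288 and 7178 genes had an unadjusted p under 0.05. In those settings 7 and 12 P450 genes were higher at an unadjusted p under 0.05. Lower at that threshold were Cyp11b2, Cyp2a2, Cyp4a3 and Cyp4v3 with slide row as a block, and Cyp11b2 and Cyp2a2 in slide row 1 alone. The replicate numbers do not pair the samples, and with the replicate block limma called 0 P450 genes and 0 partner genes, where 10 P450 genes were higher and 2 lower at an unadjusted p under 0.05 (9943 of all genes). Leaving out each array gave 0 to 6 P450 genes higher and 0 to 1 lower, the latter Cyp2c7 without BBMP replicate 1, and 0 to 5 partner genes higher and 0 to 3 lower. The calls over all genes then ran from 3 to 4002, so that the loss touched all genes and not the P450 genes alone. Cyp2d4 and Cyp4f40 were called in 19 of the 23 settings, Cyp4f6 in 17, Cyp21a1 in 14, Cyp4f17 in 13, Cyp2b15 in 12 and Cyp4a1 in 11. Uncalled members that changed sign within slide row 1 were Cyp11a1, Cyp11b3, Cyp17a1, Cyp26b1, Cyp2c11, Cyp2f4, Cyp2j3, Cyp2j4 and Cyp2r1. The cause of these shifts was not tested. Signal over background limits Cyp2b15 and the members detected in 1 group.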

Other observations

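Several P450 genes typical of liver were too dim to be tested but were not evenly low. Cyp2c13 gave -5.70, -7.19 and -3.69 in control and -4.41, -6.29 and -8.36 in BBMP animals, and Cyp2c6v1 gave -4.70, -6.74 and -4.25 in control and -4.69, -5.87 and -6.87 in BBMP animals. In both, control replicate 3 was the highest control animal and BBMP replicate 1 the highest BBMP animal. Albumin (Alb), the leading hepatocyte marker, gave -0.0054, -1.24 and 1.69 in control and 1.18, -0.56 and -2.29 in BBMP animals, with the same animals highest in each group. The same animals were also highest in the hepatocyte markers Apoa1, Apoa2, Serpina1, Ahsg and Hpx, of which Apoa2 was well above background on 1 control array. In Fga, Fgb and Apoh they were not. Fga, a fibrinogen chain, gave 0.87, 0.51 and 0.67 in control and 0.57, 0.95 and 1.27 in BBMP animals. Its highest values came from control replicate 1 and BBMP replicate 3. The 11 hepatocyte markers, of which 9 were tested and none called, had a summed level of 1.73 to 2.87 in control and 2.04 to 2.52 in BBMP animals, and Tat was well above background on no array. These genes were set side by side after their values were seen, and a shared source was not tested.

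Cyp1a2 and Cyp7a1, both expressed mainly in liver, each stood out on 1 array: control replicate 2 gave -3.29 for Cyp1a2, where the other 5 animals lay between -8.39 and -7.69, and -3.98 for Cyp7a1, where they lay between -8.39 and -7.69. It was the sole array on which either gene was well above background, so that the values of the other animals are bounds, and albumin was the lowest of the control animals there.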
